A study of Mus musculus with 9 samples.

Results

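Transcripts of 9 genes of the complement system were followed in the mouse left ventricle: the C1q chains C1qa, C1qb and C1qc, the proteases C1ra and C1s1, the components C4b and C3, and the anaphylatoxin receptors C3ar1 and C5ar1. The genes were taken from a list of symbols that was chosen with earlier results of these data known. They were matched through their Ensembl identifiers and make up 9 of the 49671 gene identifiers in the deposited tables. All 9 passed the filter on low counts. The measurements were reads per gene from polyadenylated RNA of 9 libraries. Ventricles came from dSG knockout (KO) mice, given ifetroban (3 libraries) or vehicle (2 libraries), and from wild-type (WT) mice given ifetroban (2 libraries) or vehicle (2 libraries). dSG is the usual short name of delta-sarcoglycan, the product of Sgcd and a part of the protein complex that ties the muscle membrane to the matrix around it. Ifetroban blocks the thromboxane-prostanoid receptor. The strain, age, dose, length of treatment and knockout allele are not given in the sources used here. The labels do not state whether each library is a separate animal, so the p-values reflect only how these samples vary, and some of that variation may be technical.

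Complement is a cascade of serum and tissue proteins that marks cells, debris and microbes for uptake. In its classical pathway the C1q molecule binds a target, the proteases C1r and C1s that it carries cleave C4 and C2, and the complex so formed cleaves C3. The fragments C3a and C5a, called anaphylatoxins, act on leukocytes through the receptors encoded by C3ar1 and C5ar1. Most circulating complement is made in the liver, while C1q is known as a product of tissue macrophages, and fibroblasts can make C1r, C1s, C3 and C4.

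The libraries held 21299748 to 31394548 reads in genes. Levels are given in CPM, read counts relative to the TMM-scaled library size. Sgcd, the targeted gene (chromosome 11, 46896253 to 47988969, minus strand, GRCm38), was at 7.49 to 18.5 CPM in the 5 KO libraries and at 28.9 to 33.1 CPM in 3 of the 4 WT libraries. Sgcd was at 11.1 CPM, inside the KO range, in the library labelled WT vehicle replicate 1 and so went against that label; every direction drawn from WT vehicle below includes this library. Pttg1 stood apart by genotype in the tests of all genes and was named after its values were seen. It was at 1.66 to 2.46 CPM in KO libraries and at 76.7 CPM in the library labelled WT vehicle replicate 1. The other WT libraries held 46.2 to 46.6 CPM of it. Pttg1 thus went with the label of that library, where Sgcd went against it. The first principal component of all genes held 47.5% of the variance and set apart KO vehicle replicate 1 (score 84.4) and KO ifetroban replicate 1 (34.2) from the remaining 7 libraries (-38.2 to 2.02). Transcript length also set libraries apart: long transcripts were low in both KO vehicle libraries, the library labelled WT vehicle replicate 1 and KO ifetroban replicate 1, and high in the other 5. The 8 cardiomyocyte markers summed to 52140 to 59620 CPM in KO libraries and to 64030 to 66980 CPM in WT libraries. Of the 8, 6 had negative averaged log2 fold changes of KO over WT and 0 were called. The median was -0.056 and the range -0.594 to 0.029, so the lower sum does not stand for a like fall of every marker. Myh6 alone was at 11240 to 22410 CPM in KO libraries and at 15970 to 24450 CPM in WT libraries. In such bulk samples, fewer cells of a type and less RNA per cell cannot be told apart.

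In knockout ventricles, transcripts of C4b and of both anaphylatoxin receptors rose: C4b 2.94-fold, C3ar1 2.27-fold and C5ar1 2.97-fold over wild type when averaged over the treatments. Of all genes tested, 0.537% were called in that comparison. The 3 calls lie close to the threshold and depend on single libraries, as given below. With vehicle alone and with ifetroban alone, 0 of the 9 passed the edgeR test. The 3 C1q chains were 0.80 to 0.98 higher on the log2 scale without passing the test, and C1s1 was the least different at 0.24. All 9 genes had positive log2 fold changes of KO over WT with vehicle and with ifetroban, as did 48.5% and 51.8% of all genes. Ifetroban changed none of the 9 beyond the test in either genotype.

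**Figure D1:**
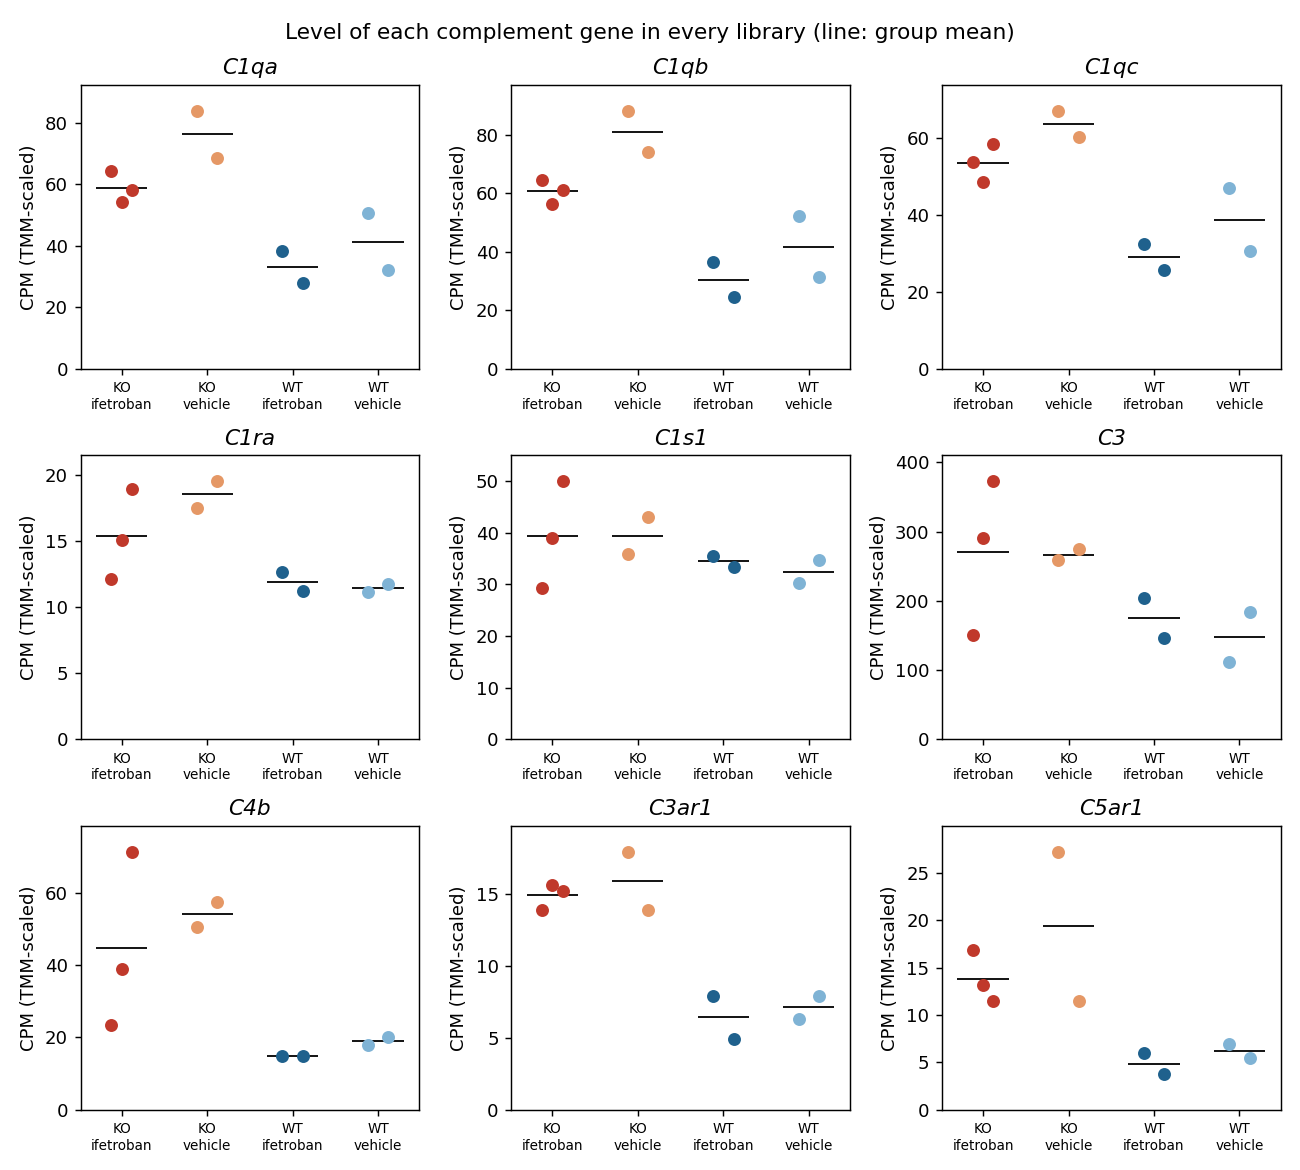
Level of each of the 9 complement genes in every library, in CPM on linear axes that start at 0, by group. Points are libraries and lines are group means; C1qa, C1qb, C1qc, C4b, C3ar1 and C5ar1 had all 5 KO libraries above all 4 WT libraries, as did 5.03% of all genes tested.

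Corrected for exonic length, the C1q chains and C3 were the most abundant of the 9 transcripts. Mean levels over the 9 libraries were 51.1 CPM per kilobase for C1qa, 49.9 for C1qb, 43.05 for C3 and 24.4 for C1qc. They were 11.7 CPM per kilobase for C1s1, 6.03 for C4b, 4.85 for C1ra, 4.42 for C5ar1 and 2.67 for C3ar1. C1ra, C4b and C1s1 share 48.0%, 35.2% and 24.3% of their 50-base words with a paralog. Reads there may go uncounted while the full length is divided by, so these levels may be too low. Within libraries, C1qc exceeded C1s1, C1s1 exceeded C4b and C5ar1 exceeded C3ar1 in 9 of 9, and C3 exceeded C1qc in 8 of 9. The other neighbours changed places. C1qa was above C1qb in 6 of 9 libraries, and C1ra above C5ar1 in 6. C1qb was above C3 in 4, the libraries with long transcripts low, and C4b above C1ra in 5, the KO libraries.

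C1qa, C1qb and C1qc encode the 3 chains of the C1q molecule and lie side by side on the minus strand of chromosome 4 (C1qb 136880129 to 136886187, C1qc 136889804 to 136893065, C1qa 136895917 to 136898803, GRCm38). Promoter sequence is shown for members that lie together or whose levels the results turn on. RefSeq's table for GRCm38.p6 held a promoter for 7 of the 9 genes, not for C1qa and C4b, and 250 bases before each start were searched on both strands for 3 motifs. These were the core of PU.1 (GAGGAA), a factor of myeloid cells, AP-1 (TGANTCA) and C/EBP (TTGCNNAA), a factor of acute-phase genes. Below, capitals mark a match, and the window is cut where it enters the gene as GENCODE draws it. C1qb is shown from chr4:136886201-136886450 and C1qc from chr4:136893066-136893164, both minus strand.
C1qb: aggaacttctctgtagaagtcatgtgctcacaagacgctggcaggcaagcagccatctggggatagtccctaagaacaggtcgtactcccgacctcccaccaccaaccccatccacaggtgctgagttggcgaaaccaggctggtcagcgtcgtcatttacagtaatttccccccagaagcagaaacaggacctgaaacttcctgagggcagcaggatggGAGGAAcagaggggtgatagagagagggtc
C1qc: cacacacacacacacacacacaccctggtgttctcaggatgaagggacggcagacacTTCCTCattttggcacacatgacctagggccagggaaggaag

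Both C1q windows held 1 PU.1 core. GAGGAA began 30 bases before the RefSeq start of C1qb. Its complement TTCCTC began 193 bases before the RefSeq start of C1qc, which lies 151 bases inside the gene as GENCODE draws it. The same letters occurred in 23.3% of all 32851 promoter windows of that length, so the match is a description and not a site.

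C1qa, which encodes the A chain, was at 84.0 and 68.6 CPM in KO vehicle libraries, against 50.7 and 32.1 CPM in WT vehicle libraries. With ifetroban it was at 64.2, 54.2 and 58.3 CPM in KO libraries, against 38.4 and 27.8 CPM in WT libraries. The lowest KO library (54.2 CPM) lay just above the highest WT library (50.7 CPM), which was the library labelled WT vehicle replicate 1. The averaged difference of KO over WT was 0.86 ± 0.169 (log2 fold change ± SE, edgeR adjusted p = 0.0607), 1 of 3 values for the chains that came close to the threshold of 0.05 without passing it.

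C1qb, the B chain, was at 88.3 and 74.0 CPM in KO vehicle libraries, against 52.2 and 31.3 CPM in WT vehicle libraries. Under ifetroban it was at 64.6, 56.2 and 61.2 CPM in KO libraries, against 36.6 and 24.4 CPM in WT libraries. Every KO library was again above every WT library, by the smallest margin against the library labelled WT vehicle replicate 1. Its averaged log2 fold change was 0.98 ± 0.182 (edgeR adjusted p = 0.058).

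C1qc, the C chain, was at 67.2 and 60.3 CPM in KO vehicle libraries, against 47.0 and 30.7 CPM in WT vehicle libraries. Ifetroban-treated KO libraries held 53.9, 48.6 and 58.5 CPM, against 32.5 and 25.7 CPM in ifetroban-treated WT libraries. The groups did not overlap, and the averaged log2 fold change was 0.80 ± 0.154 (edgeR adjusted p = 0.0593).

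The chains kept close to each other from library to library. The log2 ratio of C1qa to C1qb ranged from -0.11 to 0.18 with an SD of 0.0909 over the 9 libraries, while log2 CPM of the single chains had SDs of 0.49 to 0.61. C1qc over C1qb ranged more widely, from -0.39 in KO vehicle replicate 1 to 0.07 in WT ifetroban replicate 2. C1qc was thus lowest relative to C1qb in the library where both were highest.

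The summed level of 15 macrophage markers was higher in every KO library than in any WT library. The markers summed to 475 to 699 CPM in KO libraries and to 253 to 336 CPM in WT libraries, and none of the 15 was at 0 in all libraries. Of the 15, 14 had a positive averaged log2 fold change (median of all genes -0.00355). The test called 3 higher (background 0.505%), calls that depend on single libraries, as given below. These were Trem2 (1.87 ± 0.206, edgeR adjusted p = 0.0125), a receptor of macrophages that take up debris, Mpeg1 (1.33 ± 0.209, adjusted p = 0.0425), which encodes a pore-forming protein, and Lyz2 (1.20 ± 0.191, adjusted p = 0.0432), a lysozyme gene. Others were nearly level, with averaged log2 fold changes of -0.09 ± 0.221 for Cd163, 0.0018 ± 0.152 for Folr2 and 0.027 ± 0.165 for Mertk. These were named after their values were seen. The summed level of the C1q chains was 0.299 to 0.428 of the macrophage sum in KO libraries and 0.308 to 0.464 of it in WT libraries. These ranges overlapped, and the highest ratio was that of the library labelled WT vehicle replicate 1. How far macrophage content accounts for the level of the C1q chains was not tested.

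**Figure D2:**
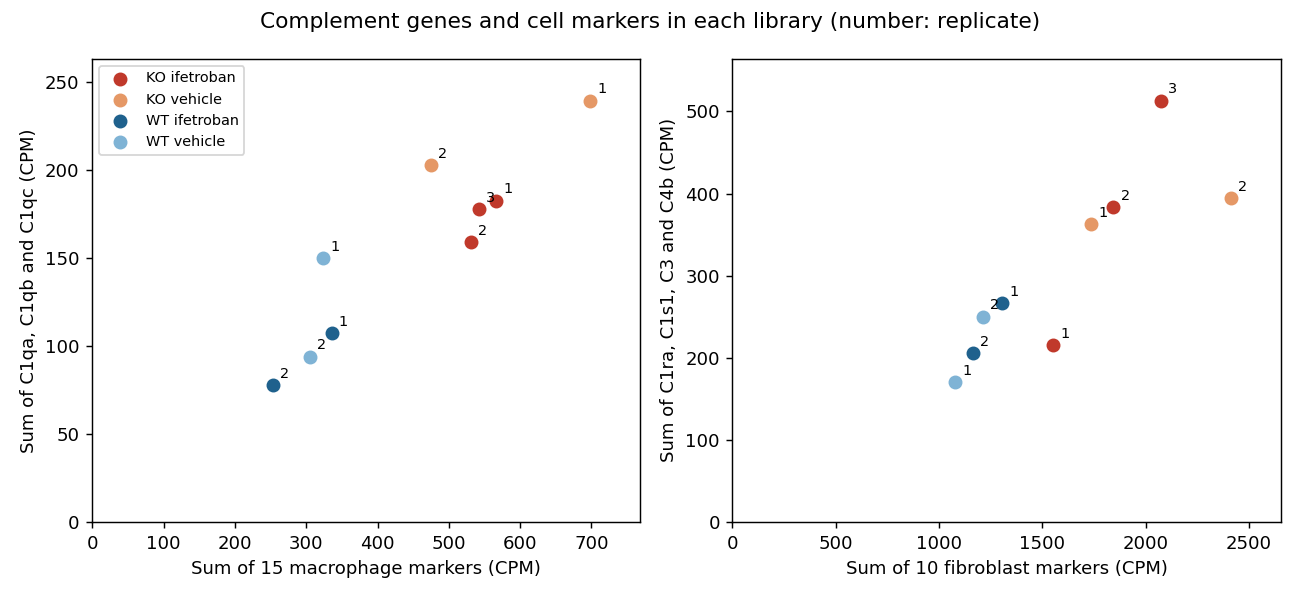
Left, summed CPM of C1qa, C1qb and C1qc against the summed CPM of 15 macrophage markers; right, summed CPM of C1ra, C1s1, C3 and C4b against that of 10 fibroblast markers. Each point is 1 library with its replicate number; KO libraries sit between 475 and 699 CPM of macrophage markers and WT libraries between 253 and 336 CPM.

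C1ra (chromosome 6, 124512405 to 124523443, plus strand) encodes the mouse C1r protease, which C1q activates. It was at 17.5 and 19.5 CPM in KO vehicle libraries, against 11.1 and 11.8 CPM in WT vehicle libraries. Its ifetroban values were 12.2, 15.1 and 19.0 CPM in KO libraries, against 12.7 and 11.2 CPM in WT libraries. The vehicle groups were apart, but KO ifetroban replicate 1 lay below WT ifetroban replicate 1. The log2 fold change was 0.70 ± 0.222 with vehicle (edgeR adjusted p = 0.293) and 0.53 ± 0.151 when averaged (adjusted p = 0.144).

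C1s1 (chromosome 6, 124530345 to 124542359, minus strand) encodes C1s, the protease that cleaves C4 and C2. It was at 35.8 and 43.0 CPM in KO vehicle libraries, against 30.2 and 34.6 CPM in WT vehicle libraries. With ifetroban the KO libraries held 29.2, 38.9 and 49.9 CPM, against 35.5 and 33.4 CPM in WT libraries. KO ifetroban replicate 1 held the lowest level of all 9 libraries and KO ifetroban replicate 3 the highest, so the spread within that group covered every WT value. The averaged log2 fold change was 0.24 ± 0.162 (edgeR adjusted p = 0.472), with a 95% interval of -0.13 to 0.60. C1ra was lower than C1s1 in every library, by a log2 ratio of CPM of -1.58 to -1.03, and the ratio was highest in both KO vehicle libraries.

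C1ra and C1s1 each have a near copy. C1ra shared 48.0% of the 50-base words of its longest transcript with C1rb, and C1s1 shared 24.3% with C1s2, so reads in those stretches cannot be placed by sequence alone. C1rb and C1s2 held at most 1 read in any library.

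C4b (chromosome 17, 34728380 to 34743882, minus strand) encodes complement C4, whose larger fragment attaches to the target and helps to cleave C3. It was at 50.6 and 57.5 CPM in KO vehicle libraries, against 17.9 and 20.0 CPM in WT vehicle libraries. Under ifetroban it was at 23.6, 38.9 and 71.3 CPM in KO libraries, against 14.7 and 14.8 CPM in WT libraries. All KO libraries exceeded all WT libraries, but KO ifetroban replicate 1 stood only just above the highest WT library, and KO ifetroban replicate 3 held the highest level of all. C4b rose by 1.55 ± 0.278 on the log2 scale when averaged over the treatments (edgeR adjusted p = 0.0486). C4b shared 35.2% of its 50-base words with its paralog C4a, which held 0 to 10 reads per library, so C4b is measured by its unique parts.

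C3 (chromosome 17, 57203970 to 57228136, minus strand) encodes the component at which all complement pathways meet. It was at 259 and 275 CPM in KO vehicle libraries, against 111 and 184 CPM in WT vehicle libraries. Ifetroban-treated KO libraries held 151, 290 and 373 CPM, against 204 and 146 CPM in ifetroban-treated WT libraries. KO ifetroban replicate 1 lay between those WT values, while the other 4 KO libraries exceeded all WT libraries. The averaged log2 fold change was 0.74 ± 0.263 (edgeR adjusted p = 0.217), with 0.85 ± 0.386 under vehicle and 0.63 ± 0.356 under ifetroban.

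The promoter window of C3, chr17:57228137-57228386 (minus strand), carries the gene's 1 match among the 3 motifs, a C/EBP match in capitals that begins 45 bases before the start; 9.56% of all windows held this motif.
C3: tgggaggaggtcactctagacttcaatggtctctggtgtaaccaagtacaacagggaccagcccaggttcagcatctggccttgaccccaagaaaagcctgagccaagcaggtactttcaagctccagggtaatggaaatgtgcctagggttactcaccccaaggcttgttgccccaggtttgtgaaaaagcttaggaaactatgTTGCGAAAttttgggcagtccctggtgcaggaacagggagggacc

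Fibroblast and liver transcripts were set beside these genes. The 10 fibroblast markers summed to 1553 to 2412 CPM in KO libraries and to 1079 to 1306 CPM in WT libraries. All 10 had positive averaged log2 fold changes (median of all genes -0.00355). The 4 called higher (background 0.505%) were Postn (1.82 ± 0.259, edgeR adjusted p = 0.0304), Col1a1, Col3a1 and Pcolce, genes of matrix proteins and of collagen processing. Those calls too depend on single libraries, as given below. Levels of Pdgfra, Lum, Dcn, Dpt, Col1a2 and Tcf21 overlapped between the genotypes, so the higher sum does not stand for every marker. Pdgfra was at 44.9 to 57.0 CPM in KO libraries and at 26.1 to 51.2 CPM in WT libraries. Lum was at 38.4 to 101 CPM in KO libraries and at 48.8 to 63.5 CPM in WT libraries. The summed level of C1ra, C1s1, C3 and C4b was 0.139 to 0.247 of the fibroblast sum in KO libraries and 0.158 to 0.206 of it in WT libraries. The KO range enclosed the WT range, and the part of fibroblast content in these 4 genes was not tested. The 10 hepatocyte markers summed to 96.45 CPM in KO vehicle replicate 1 and to 1.39 to 8.98 CPM elsewhere, with Alb at 59.7 CPM in that library. C3 and C4b were as high in KO vehicle replicate 2, whose hepatocyte sum was 3.10 CPM. C8a, another complement gene, held 19 reads in KO vehicle replicate 1 and 0 in every other library. The part of liver RNA in the levels of C3 and C4b was not tested.

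C3ar1 (chromosome 6, 122847138 to 122856161, minus strand) encodes the receptor of C3a. It was at 17.9 and 13.9 CPM in KO vehicle libraries, against 6.31 and 7.92 CPM in WT vehicle libraries. The ifetroban groups held 13.9, 15.6 and 15.2 CPM in KO libraries, against 7.90 and 4.91 CPM in WT libraries. The lowest KO library held 13.9 CPM and the highest WT library 7.92 CPM, and these levels rest on 297 to 508 reads per KO library and 123 to 206 reads per WT library. C3ar1 rose by 1.19 ± 0.176 (averaged log2 fold change, edgeR adjusted p = 0.0325), the smallest adjusted p of the 9 genes.

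C3ar1's window, chr6:122856162-122856407 (minus strand), held 1 match of the 3 motifs, an AP-1 match in capitals that begins 22 bases before the RefSeq start; 6.75% of all windows held this motif. Of the other windows, that of C1s1 held 1 C/EBP match, and those of C1ra and C5ar1 held none.
C3ar1: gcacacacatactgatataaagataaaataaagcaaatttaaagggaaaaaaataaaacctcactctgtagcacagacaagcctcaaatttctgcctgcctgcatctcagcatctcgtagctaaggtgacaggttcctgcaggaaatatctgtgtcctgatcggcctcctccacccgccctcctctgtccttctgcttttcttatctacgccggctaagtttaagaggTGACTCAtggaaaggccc

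C5ar1 (chromosome 7, 16246743 to 16259540, minus strand) encodes the receptor of C5a, carried by neutrophils and macrophages among other cells. It was at 27.2 and 11.5 CPM in KO vehicle libraries, against 6.93 and 5.49 CPM in WT vehicle libraries. With ifetroban it was at 16.8, 13.2 and 11.5 CPM in KO libraries, against 6.02 and 3.72 CPM in WT libraries. KO vehicle replicate 1 stood far above the other KO libraries, and the lowest KO level was still above the highest WT level. C5ar1 rose by 1.57 ± 0.276 (averaged log2 fold change, edgeR adjusted p = 0.0475), and by 1.18 in the fit without KO vehicle replicate 1, where it did not pass the test.

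Neutrophil markers were low in all libraries, and their sums overlapped between the genotypes. The 10 listed markers summed to 11.9 to 31.1 CPM in KO libraries and to 3.41 to 12.7 CPM in WT libraries, with the highest sums in KO ifetroban replicate 1 and KO vehicle replicate 1, the libraries with the most C5ar1. Of 7 tested, all had positive averaged log2 fold changes (median of all genes -0.00355) and 2 were called higher (background 0.505%). They were Mmp8 (2.86 ± 0.485, edgeR adjusted p = 0.0451), a neutrophil collagenase gene, and Csf3r (1.79 ± 0.317, adjusted p = 0.0486), the receptor gene of granulocyte colony-stimulating factor. Ly6g, a defining neutrophil marker in mice, held 0 to 3 reads per library. The part of neutrophil or macrophage content in the receptor levels was not tested. None of the macrophage, fibroblast and neutrophil marker calls was kept whichever of the 4 WT libraries was left out. Without 1 of the 3 KO ifetroban libraries, 1 macrophage, 0 to 2 fibroblast and 0 neutrophil markers were called, beside 5 to 21 of all genes. Leaving out KO vehicle replicate 1 or 2 leaves 1 library in that group. The median averaged log2 fold changes were then 0.682 and 0.904 for macrophage, 0.583 and 0.393 for fibroblast and 2.197 and 2.255 for neutrophil markers.

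**Figure D3:**
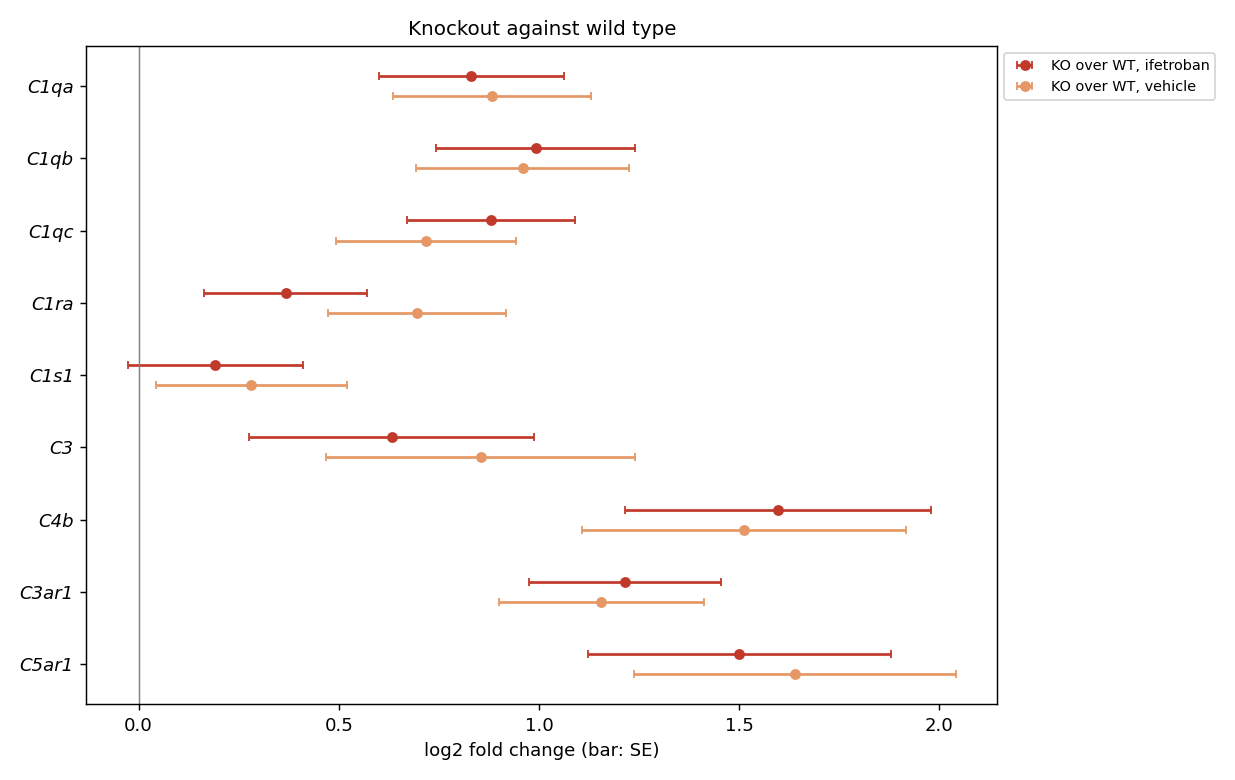
Log2 fold change of KO over WT for each of the 9 genes, with ifetroban and with vehicle; points are edgeR estimates and bars are standard errors. All 18 estimates lie above 0, from 0.19 for C1s1 with ifetroban to 1.64 for C5ar1 with vehicle.

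Over the 9 genes, the median log2 fold change of KO over WT was 0.88 with vehicle, where the median of all 15261 tested genes was -0.013 and 48.5% of them were positive. It was also 0.88 with ifetroban, where the median of all genes was 0.012 and 51.8% were positive. With vehicle, 0 of the 9 genes passed the edgeR test (background: 0.0524% of all genes called), 7 had an unadjusted p under 0.05 in the upward direction (background 8.26%), and DESeq2 called 5, C1qa, C1qb, C4b, C3ar1 and C5ar1 (background of DESeq2 2.58%). With ifetroban, 0 passed the edgeR test (background 0.0131%), 6 had an unadjusted p under 0.05 in the upward direction (background 3.85%), and DESeq2 called 3, C4b, C3ar1 and C5ar1 (background of DESeq2 0.47%). Averaged over treatments, 3 of 9 rose (background: 0.537% of all genes called, 0.505% called higher), DESeq2 called 6 (background of DESeq2 4.94%) and 8 had an unadjusted p under 0.05 upward (background 10.6%), all but C1s1. CPM values of all KO libraries exceeded those of all WT libraries for 6 of 9 genes (background 5.03%), C1ra, C1s1 and C3 being the exceptions. With vehicle alone, KO exceeded WT without overlap for 9 of 9 (background 16.8%), and with ifetroban alone for the same 6 (background 16.1%). Because the 9 genes were chosen with earlier results of these data known, their excess over the backgrounds is a description and not an independent test.

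The 3 averaged calls lie close to the threshold and depend on single libraries. None of the 9 was called without WT vehicle replicate 2, the library labelled WT vehicle replicate 1, either WT ifetroban library, KO vehicle replicate 1, KO ifetroban replicate 2 or KO ifetroban replicate 3. Without KO ifetroban replicate 1 the test called C4b alone, beside 21 of all genes. The fit without KO vehicle replicate 2 leaves 1 library in that group. There the median averaged log2 fold change of the 9 was 0.926, against 0.857 with all libraries. The number of calls over all genes also moved with the library left out, as given below. The averaged log2 fold changes over these and all other settings stayed at 1.28 to 1.82 for C4b, 1.01 to 1.38 for C3ar1 and 1.18 to 1.82 for C5ar1, with adjusted p up to 0.27, 0.207 and 0.27. No call was left when KO vehicle replicate 1 was dropped together with the library labelled WT vehicle replicate 1. Within the 4 libraries with long transcripts low (3 KO and 1 WT) the KO minus WT differences of mean log2 levels were 1.19 for C4b, 1.25 for C3ar1 and 1.32 for C5ar1. Within the 5 with long transcripts high (2 KO and 3 WT) they were 1.68, 1.18 and 1.29 for the same genes. The C1q differences were 0.50 for C1qa, 0.52 for C1qb and 0.36 for C1qc where long transcripts were low, and 0.79, 0.95 and 0.85 where they were high. A fit with this class as a term called 0 of the 9.

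Beyond the 9 genes, 41 further genes of the complement system were listed, regulators, terminal components, lectin pathway genes and other receptors, and 26 passed the filter on low counts. With vehicle, 22 of 26 had positive log2 fold changes of KO over WT (median 0.40), beside 48.5% of all genes. At an unadjusted p under 0.05, 7 were higher (background 8.26%) and 1 was lower. Under ifetroban, 23 of 26 were positive (median 0.44, background 51.8%), with 9 higher at that level (background 3.85%). Averaged over treatments, 22 of 26 were positive (median 0.44, median of all genes -0.00355). At that level 9 were higher (background 10.6%). The edgeR test called 0 of the 26 in each of these comparisons, while DESeq2 called 2 with vehicle (Serping1 and Clu), 0 with ifetroban and 6 when averaged, beside the DESeq2 backgrounds above.

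Among those with the smallest p and a mean of at least 1 CPM, regulators came first. Serping1, which encodes the inhibitor of C1r and C1s, was at 158 and 175 CPM in KO vehicle libraries, against 94.8 and 87.1 CPM in WT vehicle libraries. With ifetroban it was at 108, 112 and 154 CPM in KO libraries, against 87.9 and 86.8 CPM in WT libraries. All KO libraries exceeded all WT libraries, and the averaged log2 fold change was 0.69 ± 0.135 (edgeR adjusted p = 0.0601).

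Clu, which encodes clusterin, an inhibitor of the terminal complex, was at 1706 and 858 CPM in KO vehicle libraries, against 666 and 442 CPM in WT vehicle libraries. In ifetroban-treated ventricles it was at 997, 994 and 824 CPM in KO libraries, against 522 and 498 CPM in WT libraries. KO vehicle replicate 1 held far more than any other library, and the averaged log2 fold change was 1.05 ± 0.211 (edgeR adjusted p = 0.0628). Itgb2 and Itgam, which together encode complement receptor 3 of myeloid cells, had averaged log2 fold changes of 1.46 ± 0.361 (adjusted p = 0.101) and 2.06 ± 0.555 (adjusted p = 0.128). Itgam was at 16.0 and 10.5 CPM in KO vehicle replicate 1 and KO ifetroban replicate 1, at 3.44 to 3.93 CPM in the other KO libraries and at 0.927 to 3.08 CPM in WT libraries. Masp1, a lectin pathway protease gene, was among those with the smallest p under ifetroban (0.68 ± 0.266, adjusted p = 0.967).

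**Figure D4:**
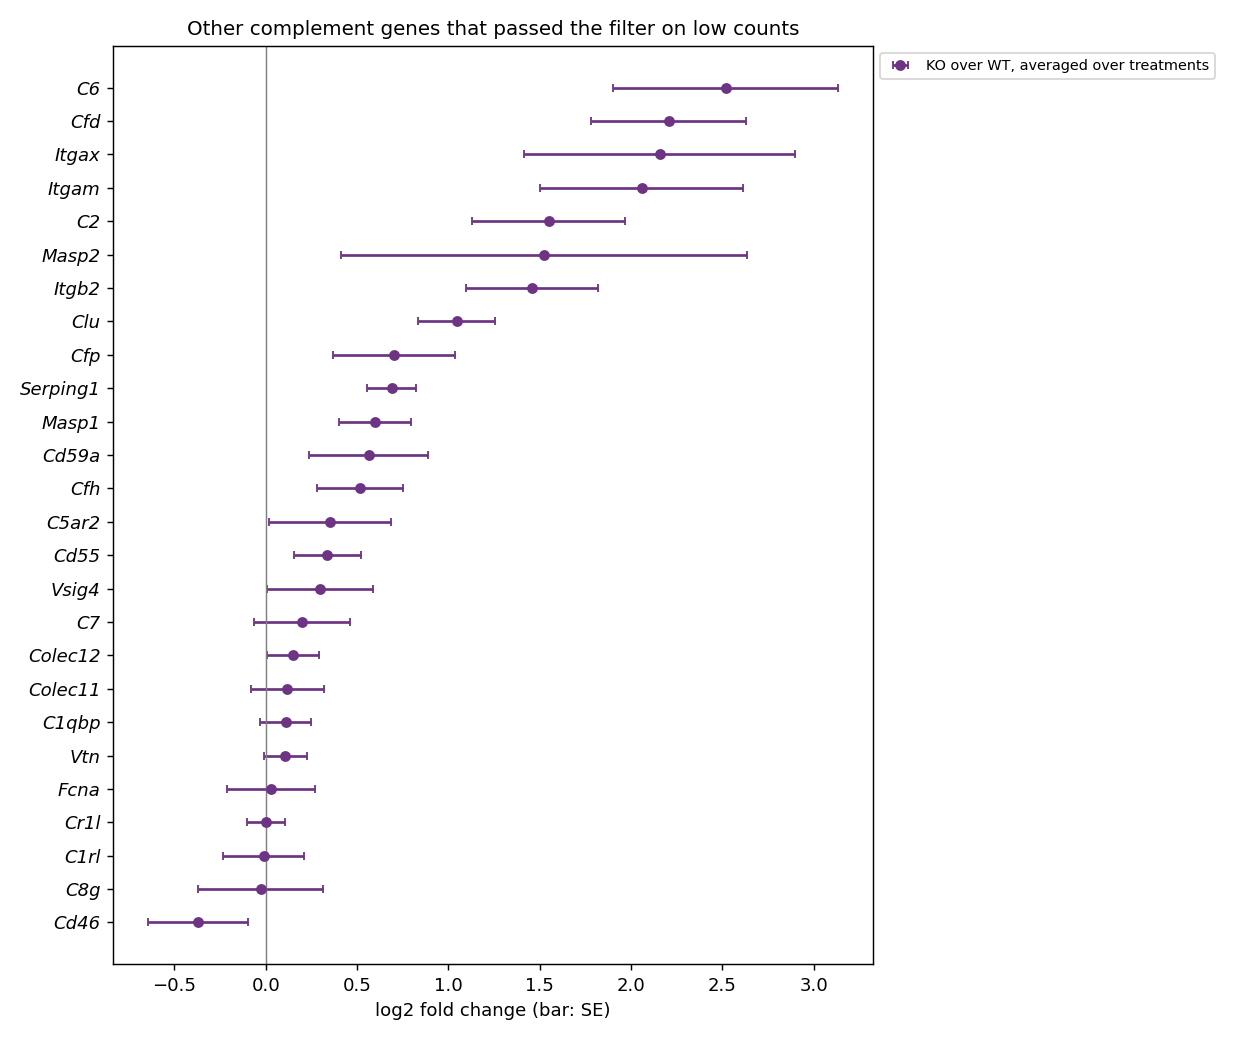
Log2 fold change of KO over WT, averaged over treatments, for the 26 other complement genes that passed the filter on low counts; points are edgeR estimates and bars are standard errors. Of the 26, 22 lie above 0, where the median of all genes was -0.00355, and none passed the edgeR test over all genes.

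Ifetroban against vehicle was then compared within each genotype. The C1q chains, C4b, C3ar1 and C5ar1 had negative log2 fold changes in both genotypes, but none of the 9 genes passed the edgeR test, at which 0% of all genes were called in KO, in WT or averaged, and DESeq2 also called 0 of the 9. In KO ventricles, C1qa averaged 58.9 ± 5.04 CPM with ifetroban (SD, n = 3) and 76.3 ± 10.9 CPM with vehicle (SD, n = 2). In WT ventricles it averaged 33.1 ± 7.54 CPM with ifetroban and 41.4 ± 13.2 CPM with vehicle (SD, n = 2 each). In KO its highest ifetroban value was 64.2 CPM and its lowest vehicle value 68.6 CPM, and in WT the groups overlapped. The share of all genes split in this way was not counted.

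C1qb averaged 60.7 ± 4.23 CPM in KO ifetroban libraries (SD, n = 3) and 81.1 ± 10.1 CPM in KO vehicle libraries (SD, n = 2). The WT means of C1qb were 30.5 ± 8.56 CPM with ifetroban and 41.8 ± 14.7 CPM with vehicle (SD, n = 2 each). Averaged over genotypes, its log2 fold change of ifetroban over vehicle was -0.44 ± 0.179, with an edgeR adjusted p of 0.62. Of the 9 genes it was the 1 with an unadjusted p under 0.05, and 2.65% of all genes were lower at that level. The averaged values of C1qa and C1qc were -0.35 ± 0.167 and -0.33 ± 0.151, of like size but without reaching that level. These values shrank by more than 1.5 times in several settings. Without the library labelled WT vehicle replicate 1, C1qa was at -0.16, C1qb at -0.23 and C1qc at -0.16, and with the term for the length class they were at -0.10, -0.18 and -0.16. In KO alone, that term gave -0.11 for C1qa and -0.15 for C1qb. Both KO vehicle libraries had long transcripts low, against 1 of the 3 KO ifetroban libraries.

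The proteases and C3 differed little between treatments relative to their errors. In KO, the log2 fold changes of ifetroban over vehicle were -0.27 ± 0.200 for C1ra, -0.0016 ± 0.218 for C1s1 and 0.024 ± 0.350 for C3. The 95% interval for C3 ran from -0.76 to 0.81, so neither a fall nor a rise of that size could be told from no change at this depth and number of libraries. In WT, the estimates were 0.06 ± 0.223 for C1ra, 0.09 ± 0.239 for C1s1 and 0.25 ± 0.384 for C3.

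C4b averaged 44.6 ± 24.4 CPM in KO ifetroban libraries (SD, n = 3) and 54.1 ± 4.92 CPM in KO vehicle libraries (SD, n = 2), a log2 fold change of -0.28 ± 0.356. The spread within the KO ifetroban group covered both KO vehicle values. C3ar1 averaged 14.9 ± 0.885 CPM and 15.9 ± 2.84 CPM in the same KO groups, a difference of -0.09 ± 0.227 on the log2 scale. C5ar1 averaged 13.8 ± 2.74 CPM in KO ifetroban libraries and 19.4 ± 11.1 CPM in KO vehicle libraries, a log2 fold change of -0.48 ± 0.348. Without KO vehicle replicate 1 this value for C5ar1 was 0.27, so its sign rests on that library.

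**Figure D5:**
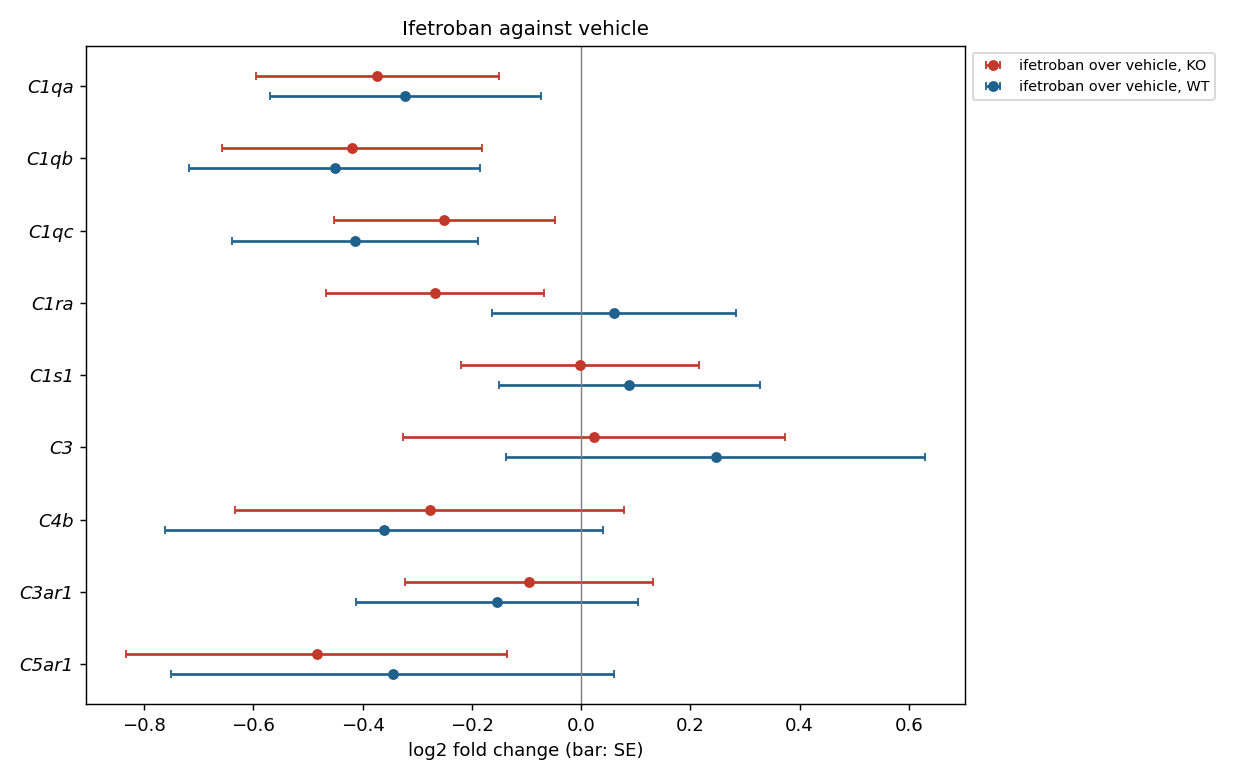
Log2 fold change of ifetroban over vehicle for each of the 9 genes, in KO and in WT; points are edgeR estimates and bars are standard errors. The KO estimates run from -0.48 for C5ar1 to 0.024 for C3, and none passed the test.

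The test of the difference between the genotypes' responses, the interaction, called 0 of the 9 genes by edgeR and by DESeq2, and 0 had an unadjusted p under 0.05 (background: 0% of all genes called). Estimates of the KO response minus the WT response ran from -0.33 ± 0.299 for C1ra to 0.16 ± 0.303 for C1qc on the log2 scale. For C5ar1 the 95% interval ran from -1.34 to 1.06, and for C3ar1 from -0.71 to 0.83. An effect of ifetroban on the knockout response of these genes within such bounds was not detectable with 2 or 3 libraries per group.

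Genes whose levels were most like those of the members are given as a description, by Pearson's r over the 9 libraries among 10115 candidate genes. For the C1q chains these were Bin3 (r = 0.973), Loxl2 (0.972), Wfdc17 (0.970), Mfap5 (0.968) and Rnmt (0.967). For C1ra, C1s1, C3 and C4b they were Ccdc80 (0.959), Adamts2 (0.956), Mrc2 (0.953), Fgfr1 (0.953) and Sulf1 (0.950). The 9 points share the difference between genotypes and the trends of the libraries with transcript length.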

How the data were processed

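Each of the 9 libraries, made from left ventricle polyadenylated RNA, has its own table of unnormalized counts of reads in genes, deposited by the authors. The tools named in the submitters' processing notes are STAR 2.5.2b and HTSeq, with the build GRCm38; the annotation release and the HTSeq version are not given in the sources used here. The deposited count tables have 3 count columns, and the reverse-strand column, which held 14.46 times the gene counts of the forward one, was used. The 4 entries that name no gene held 26.6% to 31.9% of the reads and were left out. Symbols, coordinates (counted from 1) and exonic lengths came from GENCODE's annotation of GRCm38, to which 49412 of 49671 identifiers were matched.

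Sample titles gave the groups and the replicate numbers. Genes were tested with edgeR 4.0.16 (quasi-likelihood F test, TMM, filterByExpr, 15261 genes) in R 4.3.3, with 1 coefficient per group over all 9 libraries and 7 contrasts. Tests were two-sided, with Benjamini-Hochberg adjustment over every gene tested; adjusted p below 0.05 counted as a call. Standard errors are approximate, the size of the log2 fold change over the root of its F statistic. Intervals are at 95%, from the fit's degrees of freedom, and CPM is given as mean ± SD. CPM per kilobase divides CPM by exonic length. DESeq2 1.42.0 was an alternative, with other scalings, filters, counts, length terms, a block and libraries left out. The fit was checked on simulated counts. Replicates of each group differed by more than sampling noise, with chi-square values of 13.8 to 84.1 per degree of freedom. Motifs were searched by exact letters in RefSeq's promoter windows.

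The members and all gene and marker lists were chosen with earlier results of these data known. All 9 members are named in each comparison; of the other complement genes, those called and otherwise the 4 with the smallest p and a mean log2 CPM of at least 0. Genes alike in pattern were the 5 protein-coding non-members with the highest r for each set, at a mean log2 CPM of at least 2.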

Additional observations from a re-analysis of the deposited data

Results flagged for a closer look

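Reads on the strand opposite to the genes were outside the comparisons and were seen for all 9 genes, above the limit of 3 reads that a count of 0 allows. Over the 9 libraries there were 124 such reads for C1qa, 116 for C1qb, 209 for C1qc, 38 for C1ra, 177 for C1s1, 1070 for C3, 102 for C4b, 32 for C3ar1 and 54 for C5ar1. They made up 0.961% (C1qb) to 2.13% (C5ar1) of each gene's reads on both strands, against 6.47% over all genes. No group had 4 or more libraries, so single libraries were not tested for standing apart from their group. No gene of the 9 differed between genotypes in its response to ifetroban by the interaction test.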

How the results depend on the processing

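Signs of the KO over WT differences held for all 9 genes with vehicle and averaged over treatments, under every alternative run. With ifetroban, C1s1 was the exception, at -0.033 with the replicate block and -0.028 to 0.37 when single libraries were left out. Calls depended on the setting. With vehicle, the count of the 9 genes called was 0, beside 8 of all genes. It was 5 with DESeq2 (378 of all genes), 7 without a filter on low counts (1195) and 1, C4b, with the replicate block (45). It was 0 without any 1 of the KO ifetroban libraries (3 to 7 of all genes). With ifetroban the count of the 9 was 3 with DESeq2 (69 of all genes) and 6 without a filter (428). It was 0 in the other fits that kept 2 or 3 libraries per group. Averaged, where it was 3, it was 6 with DESeq2, 1 with RLE size factors, 8 without a filter, 6 with the replicate block, 5 with length offsets, 0 with the length-class term, 0 without the pair of KO vehicle replicate 1 with the library labelled WT vehicle replicate 1, and 0 to 6 with single libraries left out. Over all genes the averaged count was 82, and 754 with DESeq2, 1684 without a filter, 531 with the replicate block, 9 with the length-class term, 25 without that pair, 2 or 3 without any one WT library, 5 to 28 without KO vehicle replicate 1 or one of the KO ifetroban libraries, and 2078 without KO vehicle replicate 2. The other complement genes, 0 called, gave 2 (vehicle) and 6 (averaged) with DESeq2, 8, 6 (ifetroban) and 11 without a filter (the 8 include C8a, which is not among the 26 that pass it), 5 (averaged) with the replicate block, and with single libraries left out 0 to 3 with vehicle and 0 to 8 averaged. The cause was not tested. Replicate numbers are only shared numbers in the labels: deviations of same-numbered libraries correlated at 0.001 to 0.478 and those of others at -0.478 to 0.389, so not every pair passed 0.1. With the block, the averaged calls included C1qa, C1qb and C1qc. With 2 or 3 libraries per group, a lone library left in a group is assumed to vary like the others.

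Ifetroban estimates, none of them called, changed sign in several settings. In KO, C1s1 was at 0.033 without a filter, 0.015 with unstranded counts, 0.077 with length offsets and 0.013 with the compared groups alone, and C3 at -0.32 with the replicate block, -0.016 with length offsets and -0.70 with the length-class term. Without that pair, KO values were -0.017 for C3, 0.10 for C3ar1 and 0.27 for C5ar1, and WT values 0.044 for C1qa, -0.007 for C1s1 and -0.07 for C3. The length-class term gave -0.10 for C1ra, -0.13 for C1s1 and -0.19 for C3 in WT. Averaged over genotypes, C1s1 was at -0.058 with the replicate block, -0.22 with the class term and -0.067 without the pair; C3 was at -0.005, -0.45 and -0.044, and C5ar1 at 0.048 without the pair. Interaction estimates without the pair were -0.25 for C1qb, -0.09 for C1qc, 0.053 for C3 and 0.44 for C5ar1; with the replicate block they were -0.46 for C4b and 0.12 for C5ar1, and with the class term -0.11 for C4b.

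With single libraries left out, the KO response ranged over -0.20 to 0.17 for C1s1, -0.27 to 0.31 for C3, -0.27 to 0.11 for C3ar1, -0.78 to 0.027 for C4b and -0.98 to 0.27 for C5ar1. The WT response ranged over -0.61 to 0.044 for C1qa, -0.03 to 0.15 for C1ra, -0.007 to 0.20 for C1s1, -0.07 to 0.66 for C3 and -0.54 to 0.15 for C3ar1. The averaged response ranged over -0.056 to 0.13 for C1s1, -0.023 to 0.35 for C3, -0.32 to 0.026 for C3ar1 and, with the pair's removal counted in, -0.66 to 0.048 for C5ar1. The interaction ranged over -0.42 to 0.24 for C1qa, -0.38 to 0.35 for C1qb, -0.17 to 0.44 for C1qc, -0.30 to 0.084 for C1s1, -0.63 to 0.094 for C3, -0.24 to 0.44 for C3ar1, -0.43 to 0.39 for C4b and -0.64 to 0.61 for C5ar1.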
